A study of Mus musculus with 192 samples.

Results

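The tripartite motif (TRIM) genes of the mouse were examined in a list of accessible chromatin windows from mixed breast tumour and spleen cells. Members were the protein-coding genes whose symbol is Trim followed by a digit, which gave 67 of 22208 protein-coding genes in the GENCODE models of the mm9 genome. For each gene, windows within 1 kb of any transcript start (promoter windows) and windows in the gene and 10 kb either side were counted, and those of the second kind that lay outside 1 kb of every protein-coding start were called distal.

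The windows came from Pi-ATAC, a protocol that marks open chromatin with the Tn5 transposase in fixed, intact cells, stains a protein, and sorts the cells by index so that protein level and accessibility are read in the same cell. The cells were 4T1, an established mouse mammary tumour line, and splenocytes from a MMTV-PyMT mouse, a strain in which the mouse mammary tumour virus promoter drives the polyoma middle T antigen; this mouse carried no tumour when the spleen was taken. Both were mixed, stained for EpCAM, an epithelial surface protein, and CD45, a leukocyte surface protein, and labelled as 96 EpCAM and 96 CD45 single cells. The file analysed was 1 pooled list of 50000 windows of 500 bp with no score, so there were no replicates, no test between cell types was possible, and whether a window was open in 4T1 cells, splenocytes or both cannot be told apart.

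Marker genes of both cell types were represented in the list. Epcam had 2 promoter and 2 distal windows, and Krt8, a keratin of simple epithelia, had 1 and 2. Coro1a, an actin regulator of leukocytes, had 4 promoter windows and 1 distal window, and Ptprc, which encodes CD45, had 3 distal windows and no promoter window. The deposited windows belonged to 44863 of 118153 numbered peak calls (38.0%), so a gene without a window may still have had a call that was not kept.

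TRIM proteins share an N-terminal RING finger, B-boxes and a coiled coil, and most are E3 ubiquitin ligases that differ in the C-terminal domain that picks their substrates. The largest group carries a PRY-SPRY domain and includes many genes that interferons induce and that act in antiviral defence, where they restrict viral particles or regulate the sensors of foreign nucleic acid. Others bind microtubules, repair muscle membranes, act in erythroid or neuronal cells, or repress transcription through a PHD finger and a bromodomain.

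Sequences are given first for the promoter windows that held the letters GAAANNGAAA on either strand, a core of the interferon-stimulated response element bound by IRF factors. These letters were in 10 of 72 TRIM promoter windows (13.9%), against 5.03% of the 17303 promoter windows of all protein-coding genes. The 10 windows belonged to 8 genes, and the 2 of Trim21 overlap and share the same letters. Each stretch below is mm9 sequence in the 5′ to 3′ direction of the gene's own strand, with the word in capitals, read on that strand or as its reverse complement. Stretches that touch an annotated untranslated region are shortened.
Trim21, chr7:109713961-109713990, minus strand: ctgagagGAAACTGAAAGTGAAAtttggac
Trim26, chr17:36973886-36973991, plus strand: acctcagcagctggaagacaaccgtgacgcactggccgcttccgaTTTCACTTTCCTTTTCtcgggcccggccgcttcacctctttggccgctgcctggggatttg
Trim12c, chr7:111501877-111501937, minus strand: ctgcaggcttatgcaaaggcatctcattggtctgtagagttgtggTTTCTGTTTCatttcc
Trim14, chr4:46548996-46549025, minus strand: ccgagcaaggTTTCGATTTCtgcaccaacc
Trim30a, chr7:111613708-111613788, minus strand: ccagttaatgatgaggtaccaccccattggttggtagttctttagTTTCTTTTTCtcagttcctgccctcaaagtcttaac
Trim41, chr11:48631726-48631825, minus strand: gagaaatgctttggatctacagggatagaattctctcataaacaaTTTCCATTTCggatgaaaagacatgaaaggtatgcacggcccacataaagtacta
Trim59, chr3:68849096-68849195, minus strand: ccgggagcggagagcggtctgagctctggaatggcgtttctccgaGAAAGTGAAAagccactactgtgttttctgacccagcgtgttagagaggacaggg
Trim7, chr11:48651602-48651701, plus strand: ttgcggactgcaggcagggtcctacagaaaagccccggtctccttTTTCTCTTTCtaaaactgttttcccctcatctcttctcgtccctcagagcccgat
In Trim21, a cytosolic antibody receptor, and Trim26, a ligase encoded in the MHC region, 2 words overlapped to give 3 tetranucleotides in a row, each 2 bases apart. The middle of the word lay 8 bp downstream of the nearest start in Trim21, 11 bp upstream in Trim12c, 3 bp downstream in Trim14 and 31 bp upstream in Trim30a. It was farther from the nearest start in Trim26 (141 bp), Trim7 (365 bp), Trim59 (468 bp) and Trim41 (920 bp), upstream in each. In Trim41 the word lay 240 bp from the window's summit, near the window's edge. The first 5 genes printed belong to the list of interferon-induced TRIM genes and the last 3 do not.

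A second set shows the letters CCGGAAG, a core bound by ETS factors, in the first 3 genes by symbol that held it and were not printed above. The word was centred 13 bp upstream of the nearest start in Trim11, and in Trim16 it lay 67 bp upstream. In Trim23 it lay 556 bp upstream, inside the neighbouring gene 2410002O22Rik on the other strand and in sequence of an untranslated region.
Trim11, chr11:58791534-58791594, plus strand: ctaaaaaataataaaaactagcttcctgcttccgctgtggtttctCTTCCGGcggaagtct
Trim16, chr11:62633618-62633714, plus strand: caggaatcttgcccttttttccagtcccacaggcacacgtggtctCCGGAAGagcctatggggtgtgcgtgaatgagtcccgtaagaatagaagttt
Trim23, chr13:104968307-104968336, plus strand: aagcacaggtcCCGGAAGatcgggcttcaa
The ETS word was in 8 TRIM promoter windows (11.1%), against 17.5% of all promoter windows, in Trim11, Trim16, Trim23, Trim41, Trim44, Trim6, Trim68 and Trim7. The cyclic AMP response element, TGACGTCA, was in 1 TRIM promoter window (1.39%, against 2.82%), that of Trim26.

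Another set was chosen after the windows at Trim7 had been seen. It shows the letters GGTTCGANNCC, the core of the B box, which is the internal promoter element of transfer RNA genes read by RNA polymerase III.
Trim2, chr3:84032899-84032999, minus strand: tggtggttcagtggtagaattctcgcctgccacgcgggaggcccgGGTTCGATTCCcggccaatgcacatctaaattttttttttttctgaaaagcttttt
Trim7, chr11:48670442-48670542, plus strand: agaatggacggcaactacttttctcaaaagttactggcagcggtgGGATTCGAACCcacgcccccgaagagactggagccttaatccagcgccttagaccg
Trim27, chr13:21264672-21264772, plus strand: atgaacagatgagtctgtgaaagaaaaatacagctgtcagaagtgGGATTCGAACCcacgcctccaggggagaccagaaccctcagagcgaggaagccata
Trim41, chr11:48632050-48632150, minus strand: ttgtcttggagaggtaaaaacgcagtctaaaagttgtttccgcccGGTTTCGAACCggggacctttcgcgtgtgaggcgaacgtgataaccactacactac
These letters were in 8 of 70 TRIM distal windows (11.4%), against 0.358% of the 32697 windows of the list away from protein-coding starts. Of the 8, 3 were at Trim7, whose windows led to the choice of this word, 3 at Trim27 and 2 at Trim2. The word was also in 1 promoter window of Trim41, the same window that held the interferon word. Several windows counted for these 4 genes therefore contained the letters of a transfer RNA promoter, 5 bp from the window's summit in the Trim7 window printed, 84 bp in Trim41, 86 bp in Trim2 and 108 bp in Trim27. Whether those windows mark transfer RNA genes or the TRIM genes beside them was not tested.

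**Figure D1:**
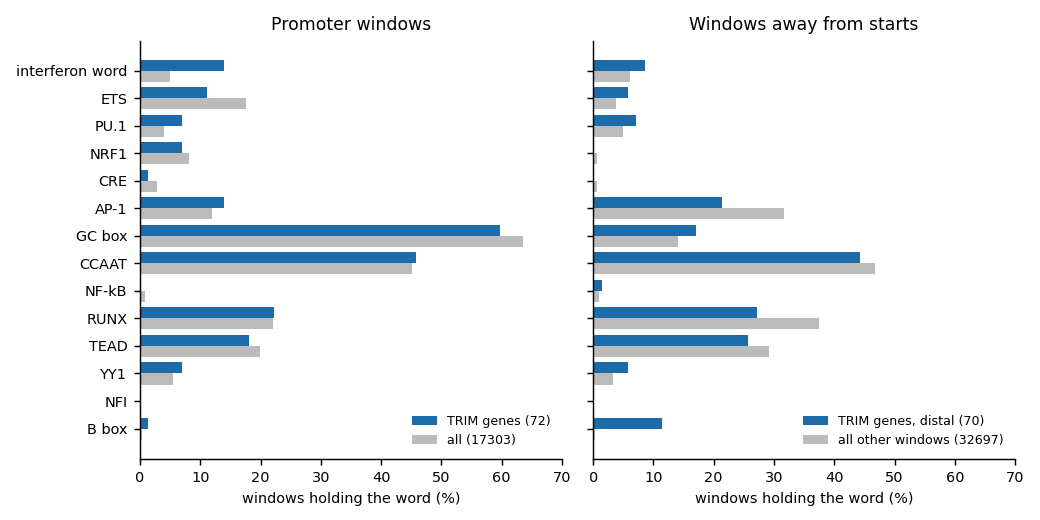
Share of 500-bp windows (%) that hold each of 14 sequence words on either strand, for TRIM windows (blue) and all windows of the same kind (grey), at promoters (left) and away from starts (right). The interferon word was in 13.9% of TRIM promoter windows against 5.03%, and the B box in 11.4% of TRIM distal windows against 0.358%.

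A promoter window was found at 36 of the 67 TRIM genes (53.7%), where 48.3% of all protein-coding genes had one. Of these, 13 genes had 1, 14 had 2, 6 had 3, Trim27 and Trim28 had 4 and Trim7 had 5 promoter windows. A promoter window from a call with several summits, the only sign of a broad or composite peak in the list, was found at 12 TRIM genes (17.9%, against 13.1% of all genes). They were Trim2, Trim6, Trim7, Trim16, Trim17, Trim21, Trim23, Trim27, Trim28, Trim32, Trim33 and Trim59. A distal window was found at 33 TRIM genes (49.3%, against 44.4%), an order that turned when the gene alone was counted (23.9%, against 27.7%) or when each window went to its nearest start (31.3%, against 35.2%). Any window in the gene and 10 kb either side was found at 52 (77.6%, against 68.2%). The TRIM shares thus lay within 10 percentage points of the shares over all genes in each of the 4 counts. The median TRIM gene had 2.0 windows in the gene and 10 kb either side and the median of all genes was also 2.0, and the median number of distal windows was 0 in both.

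**Figure D2:**
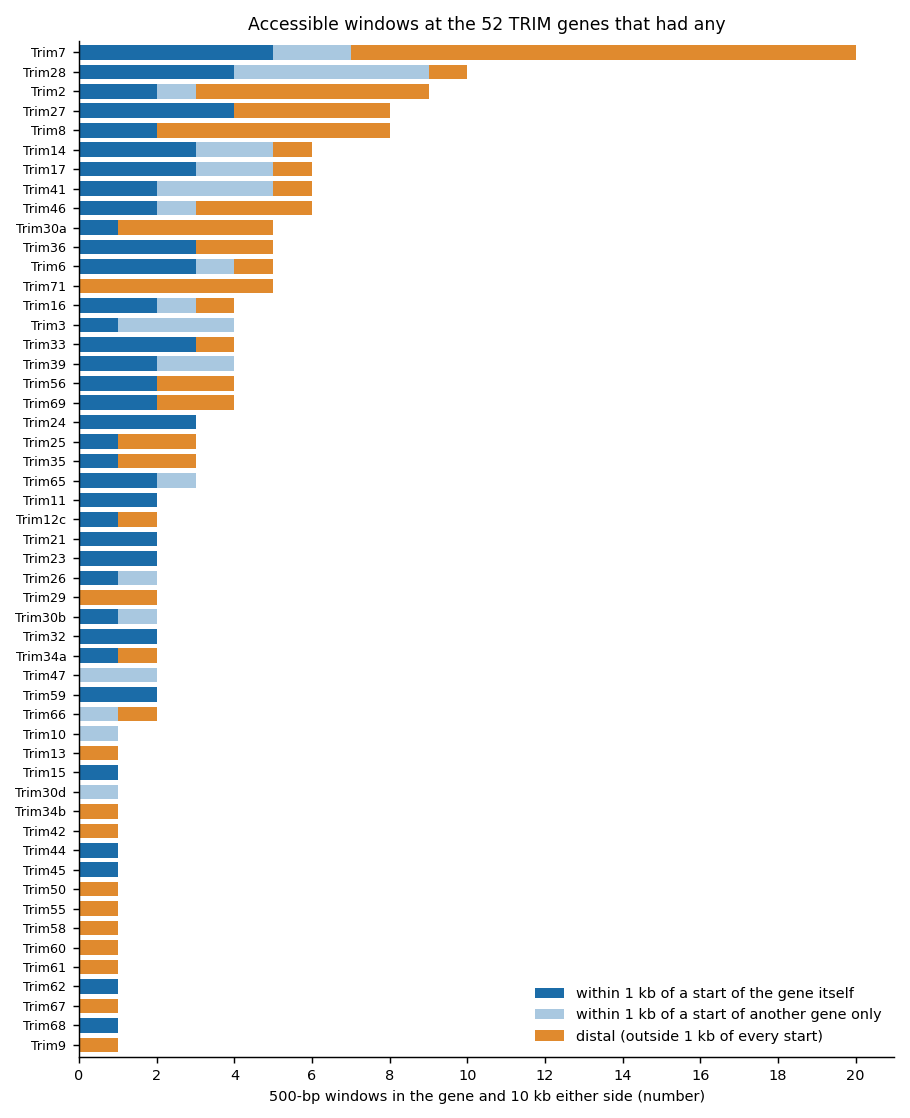
Number of 500-bp windows in the gene and 10 kb either side for the 52 TRIM genes that had any, split into windows within 1 kb of a start of the gene itself (dark blue), within 1 kb of a start of another gene only (light blue) and distal (orange). Trim7 had 20, Trim28 had 10 and Trim2 had 9, and no other TRIM gene had more than 8.

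The 72 promoter windows were centred on the starts. The summit lay a median of 1.0 bp downstream of the nearest start, against 27.0 bp upstream over the 19386 gene and window pairs of all genes. It lay within 250 bp of a start in 43 windows (59.7%, against 57.2%), and upstream of it in 36 (50.0%, against 55.9%). The gene with a promoter window whose nearest summit was farthest from a start was Trim44 (461 bp), which encodes a TRIM protein without a RING finger, and the nearest gene without one was Trim10, whose closest summit was 2.35 kb away. The closest summit of the 31 genes without a promoter window was a median of 20.67 kb away, against 29.14 kb for the 11484 such genes among all.

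**Figure D3:**
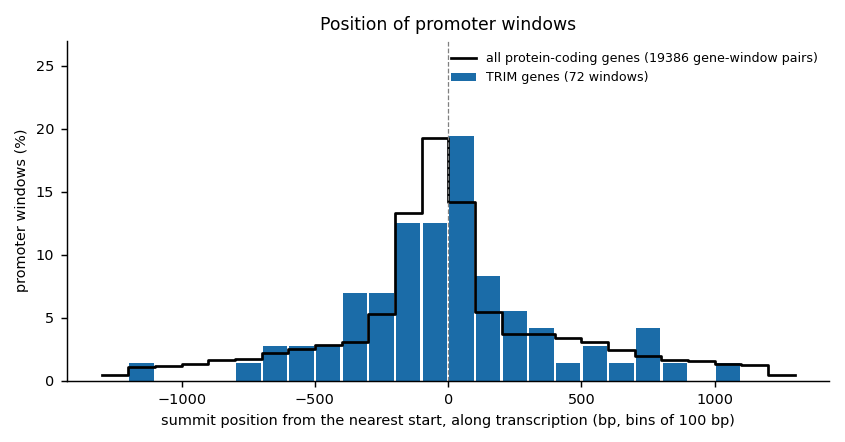
Position of the summits of promoter windows from the nearest transcript start along the direction of transcription (bp, bins of 100 bp), as a share (%) of the windows of TRIM genes (bars) and of all protein-coding genes (line). In both sets most summits, 59.7% and 57.2%, lay within 250 bp of a start.

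TRIM genes with a CpG-rich outermost start had a promoter window in a larger share of cases than those with a CpG-poor one. The same held over all genes. The CpG ratio was the number of CpG dinucleotides around the outermost start divided by the number that base composition alone would give. It had a median of 0.405 over TRIM genes and 0.55 over all genes. Of the 24 TRIM genes with a ratio of 0.6 or more, 20 had a promoter window (83.3%, against 77.3% of all genes with such a ratio). Of the 43 below 0.6, 16 had one (37.2%, against 23.8%). The 4 CpG-rich TRIM genes without a promoter window were Trim37, Trim52, Trim67 and Trim71. The 16 CpG-poor genes with one were Trim2, Trim6, Trim12c, Trim15, Trim16, Trim21, Trim27, Trim30a, Trim30b, Trim32, Trim34a, Trim36, Trim39, Trim44, Trim56 and Trim69. A promoter window may lie at another start than the outermost, so the ratio of a gene need not describe its windows. At Trim2 the ratio was 0.531, while its promoter windows, at an internal start, had ratios of 0.936 and 0.286. Below a ratio of 0.2, 5 of 18 TRIM genes had a promoter window (27.8%, against 8.88% of all genes): Trim12c, Trim21, Trim30a and Trim30b, which are on the interferon list, and Trim69.

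**Figure D4:**
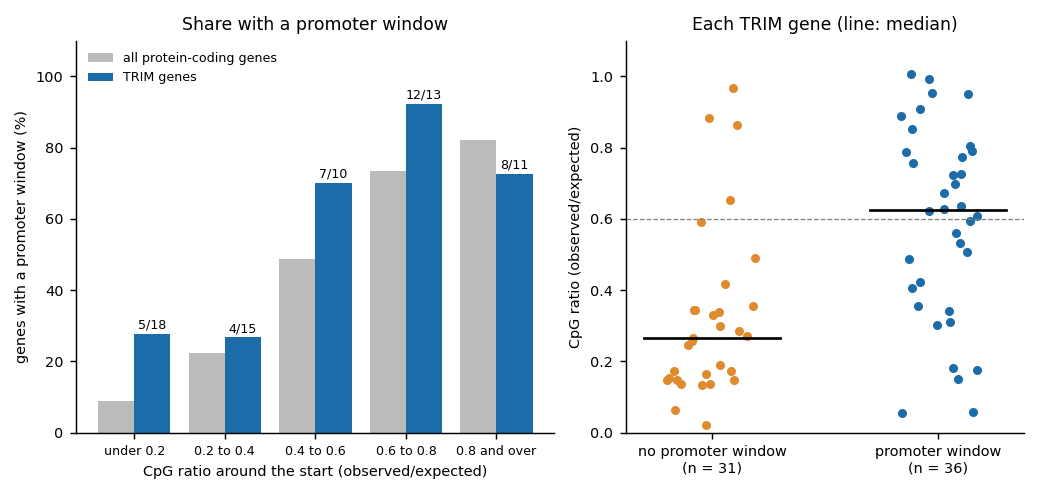
Left, share of genes (%) with a promoter window by CpG ratio around the outermost start. Grey marks all protein-coding genes and blue TRIM genes, with counts. Right, the CpG ratio of each TRIM gene without and with a promoter window, with the median as a line and 0.6 dashed. In the lowest bin 5 of 18 TRIM genes had a promoter window (27.8%), against 8.88% of all genes.

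Lists were made by domain, and the PRY-SPRY list leaves out the genes listed under a COS box. It had a promoter window at 22 of 38 genes (57.9%, against 53.7% of all TRIM genes and 48.3% of all genes). The 22 were Trim6, Trim7, Trim11, Trim12c, Trim14, Trim15, Trim16, Trim17, Trim21, Trim25, Trim26, Trim27, Trim30a, Trim30b, Trim34a, Trim35, Trim39, Trim41, Trim62, Trim65, Trim68 and Trim69. The 16 without one were Trim5, Trim10, Trim12a, Trim30c, Trim30d, Trim34b, Trim38, Trim43a, Trim43b, Trim43c, Trim47, Trim50, Trim58, Trim60, Trim72 and Trim75. Trim14 and Trim16 of this group lack the RING finger.

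Among 14 interferon-induced TRIM genes, 9 had a promoter window (64.3%, against 48.3% of all genes): Trim12c, Trim14, Trim21, Trim25, Trim26, Trim30a, Trim30b, Trim34a and Trim56. Trim5, Trim12a, Trim30c, Trim30d and Trim34b had none. The CpG ratio was below 0.6 at 11 of the 14, of which 6 had a promoter window, against 23.8% of all genes below that ratio. Of the 9, 5 held the interferon word printed above, in 7 of their 13 promoter windows, and of the other 27 TRIM genes with a promoter window 3 held it, in 3 of 59. The 2 windows of Trim21 overlap each other and share the same letters. Trim25, the ligase that activates the RNA sensor RIG-I, and Trim56, a ligase of the DNA-sensing pathway, had 1 and 2 promoter windows without the word, and each had 2 distal windows from a single call beyond its 3′ end.
Trim30a, a negative regulator of Toll-like receptor signalling, had 1 promoter window and 4 distal windows, all in its introns. Trim14, an adaptor of mitochondrial antiviral signalling, had 3 promoter windows, 1 distal window 1.851 kb upstream, and 2 windows at the start of the neighbouring Nans. Trim26 had its single promoter window 14 bp from a start and no distal window.

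In the PHD-bromodomain group, 3 of 4 genes had a promoter window (75.0%, against 48.3% of all genes). The CpG ratio was between 0.951 and 0.992 at these 3, and 82.1% of all genes at 0.8 or more had a promoter window. At Trim66 it was 0.300, and 22.2% of all genes from 0.2 to 0.4 had one. Trim28, the corepressor recruited by KRAB zinc-finger proteins, had 4, with summits 795 bp upstream and 36 bp and 725 bp downstream of its first start, and 1 more near the gene's end, 590 bp past an internal start. It also had 1 distal window 8.088 kb upstream and 5 windows at the starts of Chmp2a and Ube2m, which lie within 10 kb. Trim24, a nuclear receptor cofactor, had 3 promoter windows, 2 around its first start and 1 at an internal start, and no distal window. Trim33, a regulator of Smad signalling, had 3 promoter windows from 1 call and 1 distal window in an intron. Trim66, a testis-enriched member without a RING finger, had no promoter window, 1 distal window in a coding exon and 1 window at the start of Rpl27a.

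Among genes with NHL or filamin repeats, 4 of 5 had a promoter window (80.0%, against 48.3% of all genes): Trim2, Trim3, Trim32 and Trim45. The median CpG ratio of the 5 was 0.628, against 0.55 over all genes. Trim2, a neuronal ligase, had 2 at an internal start and 6 distal windows, of which 2 held the B box letters. Trim71, a stem cell ligase that is a target of let-7, had 5 distal windows and no promoter window, with 1 numbered call missing in the 19.7 kb around its start.
Of 6 genes without a known C-terminal domain, Trim8 and Trim56 had a promoter window (33.3%, against 48.3% of all genes). Trim31, Trim40, Trim52 and Trim61 had none. Trim8, a ligase of cytokine signalling, had 2 promoter and 6 distal windows, 3 of the latter in its introns at 2.148, 2.481 and 7.780 kb from the start. Trim23, with an ADP-ribosylation factor domain, and Trim59, with a transmembrane segment, had 2 promoter windows each, whereas Trim13 and Trim37 had none. The ratio at Trim37, whose product acts in centriole duplication, was 0.968, and 19 numbered calls were missing in the 200 kb between the windows that flank it.
Without a RING finger were also Trim29 and Trim44, the first with 2 distal windows and no promoter window and the second with 1 promoter window.

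Among microtubule-binding members with a COS box, 2 of 8 had a promoter window (25.0%, against 48.3% of all genes). They were Trim36 with 3 and Trim46, which organises the axon's initial segment, with 2. Trim9, Trim42, Trim54, Trim55, Trim63 and Trim67 had none. The median CpG ratio of the 8 genes was 0.445, against 0.405 over all TRIM genes and 0.55 over all genes. Trim36 also had 2 distal windows, and Trim46 had 3. The neuronal genes Trim9 and Trim67 each had 1 distal window.

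None of the 4 muscle genes had a promoter window, where 48.3% of all protein-coding genes had one. Trim63, Trim55 and Trim54 encode the MuRF ligases of the sarcomere and Trim72 a membrane repair protein. Trim55 had 1 distal window, and the other 3 had no window in the gene and 10 kb either side. No numbered call was missing in the 68.6 kb around the starts of Trim54, 1 was missing around those of Trim55 and 1 around those of Trim63, and 5 around those of Trim72. The CpG ratios of the 4 genes were between 0.148 and 0.271. Over all genes, 8.88% of those below a ratio of 0.2 had a promoter window, and 22.2% of those from 0.2 to 0.4. Neither erythroid gene had a promoter window: Trim58, which acts when red cells lose the nucleus, had 1 distal window, and Trim10 had 1 window that lay at the start of Trim15. The CpG ratio was 0.490 at Trim58, and 48.7% of all genes from 0.4 to 0.6 had a promoter window. At Trim10 it was 0.173, in the range below 0.2.

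In all, 7 runs of TRIM genes lay within 200 kb of each other, and they differed in the number of windows per length.
Trim41 and Trim7, on chromosome 11 (48619906 to 48665711), had 10 windows over 45.8 kb, or 21.8 per 100 kb. Trim7, a ligase first described through glycogenin, had 20 windows in the gene and 10 kb either side, the most of any TRIM gene: 5 promoter windows, 2 windows at starts of Trim41 and 13 distal windows, 11 of them past its 3′ end. Of the last, 10 came from 2 adjacent calls, with 3 and 7 summits. Its first promoter window was also within 1 kb of a start of Gm12184. Trim41 had 2 promoter windows, 143 bp downstream and 1161 bp upstream of a start. Of the 75-base sequences within 1 kb of Trim7's first start, 51.5% occurred once in the genome, the lowest share of the 67 genes.
Trim17 and Trim11, also on chromosome 11, had 5 windows over 36.8 kb. Trim17, a neuronal ligase, had 3 overlapping promoter windows from 1 call, shared with Hist3h2a, and Trim11 had 2. Trim47 and Trim65 had 1 window over 25.4 kb. Trim65 had 2 promoter windows, the nearer 208 bp from a start, and Trim47, whose only 2 windows lie at Trim65, had none.

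**Figure D5:**
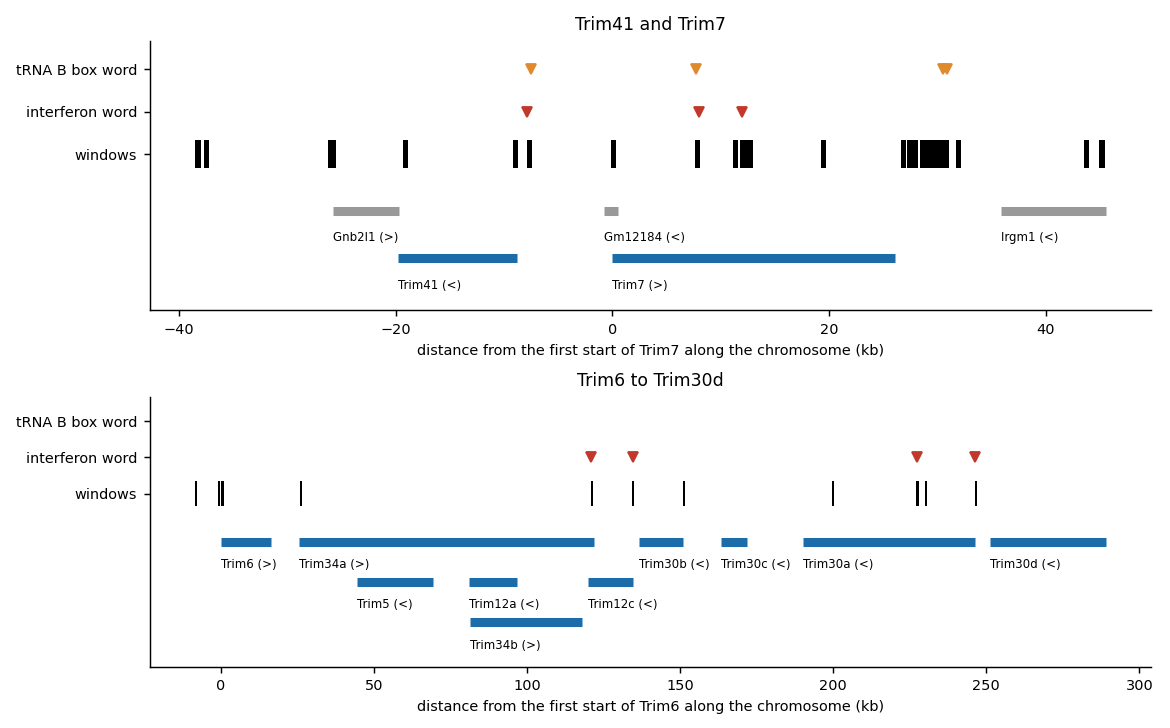
Deposited windows (black), the interferon and B box words in TRIM promoter and distal windows (triangles) and gene spans (blue, TRIM; grey, other; arrows give the strand) around Trim41 and Trim7 (top) and from Trim6 to Trim30d (bottom), in kb from the first start of Trim7 or Trim6. A block of 10 windows from calls with several summits lies past the end of Trim7, and no window lies at Trim5, Trim12a or Trim30c.

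On chromosome 7, a run of 10 genes from Trim6 to Trim30d (111367307 to 111656363) had 11 windows over 289 kb, or 3.81 per 100 kb. Trim6, whose ubiquitin chains activate the kinase IKK epsilon, had 3 promoter windows, and Trim34a, Trim12c, Trim30b and Trim30a had 1 each. The window of Trim34a lay 349 bp downstream of a start, that of Trim12c 68 bp downstream, that of Trim30b 197 bp upstream and that of Trim30a 208 bp upstream. The 1 distal window of Trim12c, Trim34a and Trim34b is the same window, 13.392 kb into Trim12c, and it holds the interferon word.
Trim5, Trim12a and Trim30c had no window at all, and Trim30d had 1 that lies at the start of Trim30a. Of the 75-base sequences near the first start, 75.7% at Trim5, 78.0% at Trim12a, 92.9% at Trim34b, 96.8% at Trim30d and 100% at Trim30c occurred once in the genome. The share was between 93.8% and 100% at the 5 genes of the run with a promoter window. It was between 65.6% and 73.3% for Trim43a, Trim43b and Trim43c, which also had no window. Calls missing around the starts numbered 0 at Trim30c, over 48.2 kb, and 1 at Trim5 and Trim12a, over 94.5 kb. The part of repeated sequence in the absence of these windows was not tested.
Trim21 and Trim68, also on chromosome 7, had 3 windows over 129 kb, 2 in a single call at Trim21 and 1 at Trim68, 23 bp from a start.

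On chromosome 17, 5 genes from Trim26 to Trim31 in the MHC region (36974079 to 37047159) had 2 windows over 73.1 kb. They were the promoter windows of Trim26 and Trim15, and Trim10, Trim40 and Trim31 had none. On chromosome 8, Trim75, Trim60 and Trim61 had no window within 37.0 kb, and the 1 distal window of Trim60 and Trim61 lies outside the run. For both runs, the number of calls missing around the starts of genes without a promoter window was 6 on chromosome 17 and 3 on chromosome 8.
Promoter windows were shared with another protein-coding gene at 5 TRIM genes in all. These were Trim7 and Trim17 as above, Trim46 with Krtcap2, Trim36 with 1700018A14Rik and Trim23 with 2410002O22Rik. The matching share over all protein-coding genes was not counted, so the 5 cannot be called many or few.

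The 73 distal windows summed over TRIM genes fell in introns in 23 cases, upstream of the gene in 16, downstream in 29 and in exons in 5. Of the 29 downstream, 11 were at Trim7, and the split was not made over all genes. The mean was 1.09 distal windows per TRIM gene, against 1.17 over all genes. Counted inside the gene alone, the 28 windows came to 14.7 per Mb of gene, against 15.9, and with 10 kb either side included in both windows and length, the 73 came to 22.5 per Mb, against 17.8, and to 18.8 without Trim7. The order of TRIM genes and all genes thus turned with the length counted. In composition, TRIM distal windows had a median GC content of 49.6% and a CpG ratio of 0.29, against 48.8% and 0.214 for all windows away from starts, and TRIM promoter windows had 58.2% and 0.672, against 59.4% and 0.699.
The AP-1 word, TGANTCA, was in 15 TRIM distal windows (21.4%, against 31.7%), and the RUNX word, TGTGGT, in 19 (27.1%, against 37.4%). The word of PU.1, an ETS factor of B and myeloid cells, GAGGAAGT, was in 5 TRIM promoter windows (6.94%, against 4.00%) and 5 distal windows (7.14%, against 4.96%). The NRF1 word, GCGCANGCGC, was in 5 promoter windows (6.94%, against 8.15%), at Trim23, Trim28, Trim32 and Trim59, and the word GGGCGG of the GC box was in 43 (59.7%, against 63.5%). The NF-kB word, GGGANTTTCC, was in no TRIM promoter window, against 0.786% of all promoter windows.

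The share of peak calls that were kept in the list differed by chromosome. It was between 27.2% and 31.3% on chromosomes 10 to 13 and between 39.7% and 44.4% on chromosomes 2 to 9, 15 to 19 and X. For chromosomes 1 and 14 the share is not given. TRIM genes on chromosomes 11, 12 and 13 had a promoter window in 9 of 14 cases (64.3%) and those elsewhere in 27 of 53 (50.9%). Over all genes the share was 49.4% on chromosomes 1 and 10 to 13 and 47.9% elsewhere.

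Genes around the TRIM proteins in the ubiquitin and sensing pathways were counted from lists, to be read beside the 48.3% of all genes with a promoter window. The ubiquitin list held E1 and E2 enzymes and Ubb, and 1 gene of it is left out. All 12 genes reported from it had a promoter window, among them Uba1, Ube2n and Ube2d3. Of 21 genes of nucleic acid sensing, 18 had one, including Ddx58, Ifih1, Mavs, Tbk1 and Myd88, while Dhx58, Irf3 and Tab1 had none. Of 14 partners of the PHD-bromodomain members, 12 had one, and Cbx3 and Setdb1, the methyltransferase that works with Trim28, had none. Of 9 TRIM-type proteins under other symbols, 6 had one: Bspry, Cmya5, Mid1, Mid2, Pml and Rnf207, but not Fsd1, Fsd2 or Mefv. The median CpG ratio was 0.85 over the ubiquitin list, 0.74 over the sensing list and 0.835 over the partners, against 0.405 over the TRIM genes.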

How the data were processed

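The list was made from single-cell Pi-ATAC libraries of 4T1 cells and splenocytes. Per the study's methods, the authors mapped reads to mm9 with Bowtie2 (2.1.0), removed duplicates with Picard (1.79), pooled cells, called summits with MACS2 and kept 500-bp windows with the lowest q-values. Each deposited window has a start, an end and a name but neither a count nor a score, and read depth was not analysed here. Peak names were read as all cells pooled. Groups came from sample titles, 1 of which has the source name of the other group.

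Windows were counted with Python 3.11.15, pandas 2.3.3 and pysam 0.24.0 against GENCODE version M1 models, with an overlap of at least 1 bp. The counting within 1 kb of outermost starts was tested on planted windows, and the counts in genes and flanks were not. The CpG ratio covers 500 bp either side of the outermost start. Missing calls were counted from gaps in the peak numbers. Sequence words were searched on both strands. All lists and members were chosen with earlier results of these data known. Full values were planned for the 12 genes with most windows, 4 lists (interferon-induced, muscle, erythroid, PHD-bromodomain), runs within 200 kb and shared promoters. For some of these genes, among them Trim6, Trim17, Trim27, Trim41 and Trim46, only part of the values is printed. Other genes named were chosen after their values were seen. Shares over all genes stand in for tests. In the ubiquitin list, 1 gene is not reported here.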

Additional observations from a re-analysis of the deposited data

How the results depend on the processing

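The list is 1 pooled sample, so its counts carry no error between replicates, and leaving out a replicate was not possible. No paired analysis was possible because the result comes from no test and the list does not separate the numbered samples. No window had a score, so no stricter threshold could be set, and windows of calls with several summits stood in for one. Of 27 alternatives, 18 stayed within 1.5 times the value reported and 9 did not. With several-summit calls alone, 18 distal windows remained. The 12 TRIM genes that then had a promoter window were by definition those already reported with a several-summit one. With the gene alone, there were 89 windows in all, 28 distal windows and 16 genes with one, 23.9% against 27.7% of all genes, the opposite order to the reported 49.3% against 44.4%. With 50 kb either side, there were 415, 194 and 55 (82.1%, against 71.7%). With each window given to its nearest start, 21 genes had a distal window (31.3%, against 35.2%), also the opposite order. The number of genes with a promoter window was between 34 and 37 under the other promoter definitions, and outside chromosomes 1 and 10 to 13 the share was 50.9%. Leaving out Trim7, chosen after seeing the data, left 156 windows and 60 distal windows.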
